A study of Mus musculus with 6 samples.

Results

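The unfolded protein response and the folding machinery of the endoplasmic reticulum (ER) were examined in livers of mice lacking Igfbp7, whose secreted product binds insulin and insulin-like growth factors. The set held 32 genes with known roles in these processes, picked by symbol with earlier results of these data known. All 32 were among the 22609 genes of the count files, and all 32 passed the filter on low counts that left 12522 genes for testing. Messenger RNA was sequenced from 3 adult liver samples of Igfbp7 knockout (KO) mice and 3 of wild type (WT) mice, all C57BL/6. The KO allele was made with a Cre-loxP strategy, and the labels name no Cre driver, sex or age. The labels do not state whether each sample is its own animal, so the p-values measure only the spread between these samples. Libraries of the same genotype differed by far more than read sampling alone gives, with a chi-square per degree of freedom of 23.1 to 42.7. Whether that spread lies between animals or in sample handling was not tested.

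The ER folds proteins that are bound for the membrane or for secretion, and hepatocytes carry a heavy load of them. When unfolded proteins build up, the sensors Ern1 (IRE1), Eif2ak3 (PERK) and Atf6 start the unfolded protein response. Ern1 splices the Xbp1 mRNA, Atf6 is cut to release a transcription factor, and Eif2ak3 slows translation while favouring that of Atf4. Together these arms raise chaperones, disulfide isomerases and the ER-associated degradation machinery that removes misfolded proteins. Counts per gene do not separate spliced from unspliced Xbp1 mRNA, nor do they measure cleavage of Atf6 or phosphorylation of Eif2ak3.

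Libraries held 18912701 to 22419411 gene counts in KO livers and 16712568 to 21478524 in WT livers. Igfbp7 had 5, 2 and 9 counts in KO libraries against 1438, 1705 and 1055 in WT libraries, which matched the labels. Over all genes, edgeR's quasi-likelihood test called 27 of 12522 at an adjusted p under 0.05, or 0.216%. That count was 5 without WT replicate 1, 4 without WT replicate 2, 3 without KO replicate 2 and 13 without KO replicate 3. Leaving out a library did not always lower the count, and the full range is given with the other processing settings. The hepatocyte markers summed to 107544 to 126583 CPM (read counts scaled to the size of the library) in KO livers and 96027 to 114758 CPM in WT livers, and none of the 9 was at 0. The 10 Kupffer cell markers in the files summed to 315 to 493 CPM in KO livers and 603 to 679 CPM in WT livers, with no overlap. The 9 B and plasma cell markers summed to 119 to 168 CPM in KO livers and 127 to 179 CPM in WT livers. Nearly all of it was Sdc1, which hepatocytes also express, so the sums say little of the other markers. Of the 7 tested, 6 had negative log2 fold changes and 1 a positive one, with a median of -0.56, where 49.7% of all genes were lower. Neither edgeR nor DESeq2 called any of them. Ms4a1, for example, was scarce, at 0.403 CPM in KO and 0.931 CPM in WT livers. Of 12 pancreatic acinar markers, 9 were at 0 in every library, and the sums of 21.3 to 35.3 CPM in KO livers and 23.3 to 29.6 CPM in WT livers were nearly all Cela1. In bulk tissue, fewer cells of a type and less RNA per cell cannot be told apart.

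Most of the 32 genes had a slightly negative KO over WT estimate, and none passed the main test. Because earlier results of these data were known when the genes were chosen, the shares of all genes given beside them are a description and no test of the set. None of the 32 was called by edgeR over all genes, where 0.0878% of all genes were called lower. At an unadjusted p under 0.05, 12 of the 32 were lower and 0 higher, where 7.35% of all genes were lower and 8.1% higher. DESeq2 called 3 of the 32 lower, Hspa5, Sdf2l1 and Manf, where it called 1.66% of all genes lower, and it called 0 of the 32 higher, where it called 1.84% of all genes higher. The log2 fold change was negative for 28 of the 32, against 49.7% of all genes tested. Their median log2 fold change was -0.13, beside 0.0013 over all genes tested. In 11 of the 32 all 3 KO values lay below all 3 WT values, where 10.1% of all genes did so, and in 0 of the 32 did all KO values lie above, where 10.7% of all genes did. Without KO replicate 3 the median was -0.097, and without KO replicate 2 it was -0.24.

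**Figure D1:**
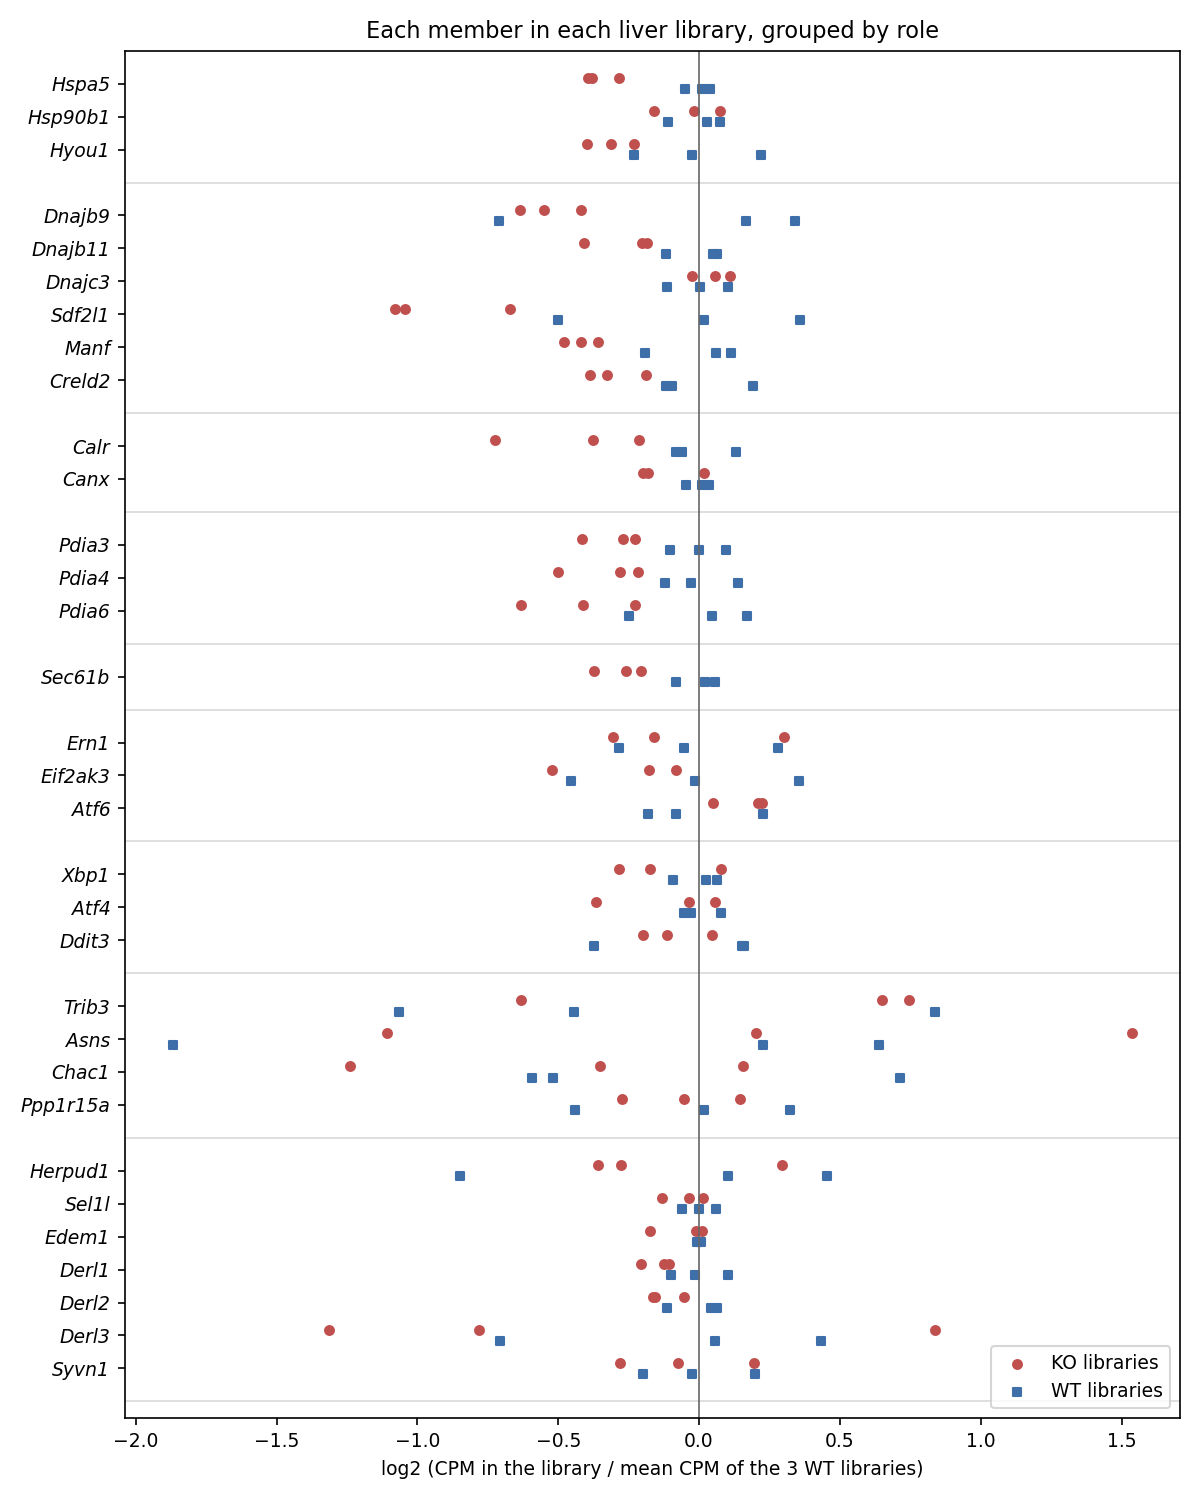
Level of each of the 32 genes in each library, as log2 of its CPM over the mean CPM of the 3 WT libraries, with KO libraries as circles above WT libraries as squares and genes grouped by role. In 11 genes, 10 of them for folding or translocation, the KO points all lie left of the WT points, while the stress sensors, the Atf4 targets and the degradation genes other than Derl1 overlap.

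The genes were then grouped by role. The roles were assigned from known function, and the merging of them into a folding side and a signalling and degradation side was done after the values had been seen, so it carries no test. The folding side held 15 genes, the chaperones, their partners, the lectins, the disulfide isomerases and Sec61b, and its median log2 fold change was -0.31. Of these 15, 14 were lower, 12 at an unadjusted edgeR p under 0.05, and 10 had groups that did not overlap. The other 17 genes had a median of -0.079, with 0 at an unadjusted edgeR p under 0.05 and 1, Derl1, with groups that did not overlap. Of all genes tested, 49.7% were lower, 7.35% were lower at that p, and 10.1% had KO values all below WT values. The 15 folding genes together took 0.414%, 0.428% and 0.407% of all gene counts in KO replicates 1 to 3, against 0.525%, 0.479% and 0.540% in WT replicates 1 to 3. Every KO library thus gave them a smaller share than every WT library. The other 17 genes took 0.207%, 0.190% and 0.197% in KO replicates 1 to 3 and 0.179%, 0.214% and 0.252% in WT replicates 1 to 3, and these ranges overlapped. The summed Kupffer markers were also lower in KO livers, and their part in the folding genes' values was not tested.

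**Figure D2:**
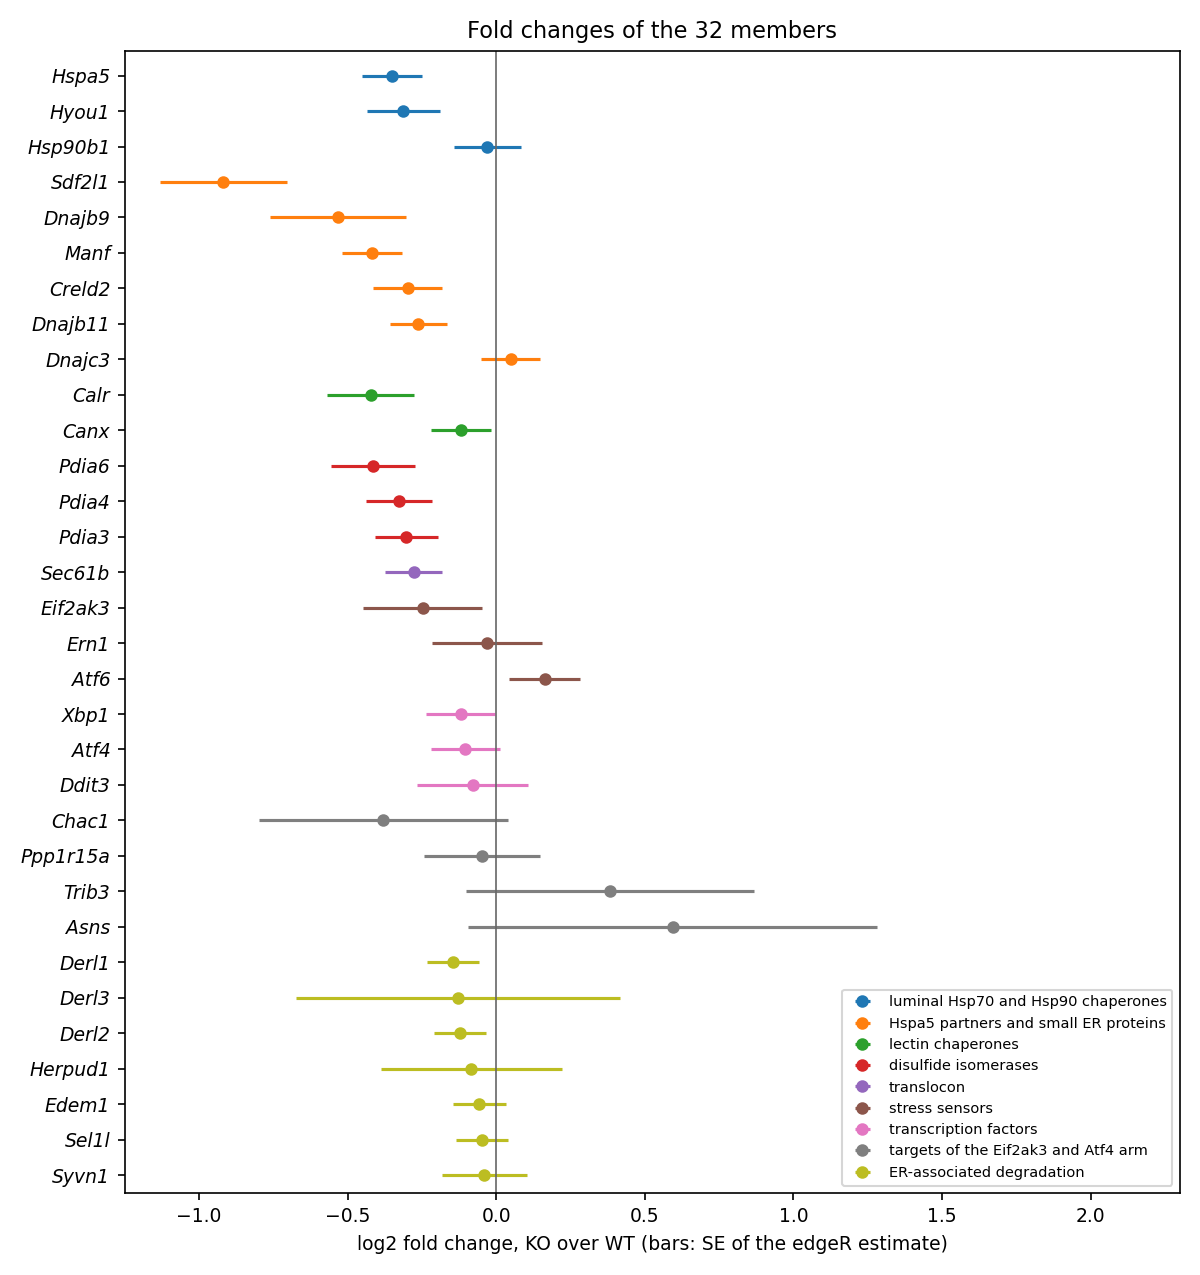
Fold changes of the 32 genes as log2 of KO over WT, with the SE of the edgeR estimate as bars, coloured by role. The folding genes run from -0.92 for Sdf2l1 to 0.048 for Dnajc3, and none of the 32 passed the threshold over all genes.

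Levels between genes were compared per kilobase of exon, with exon lengths taken from the GENCODE M21 basic annotation, which is not that of the counts. Calr had the highest mean in WT livers, at 299 ± 52 CPM per kilobase in KO livers and 401 ± 33 in WT livers (SD, n = 3 each). Hsp90b1 followed at 301 ± 24 in KO and 308 ± 20 CPM per kilobase in WT livers, then Herpud1 at 276 ± 72 in KO and 293 ± 121 in WT livers (SD, n = 3 each). Hspa5 came next in WT livers, with 197 ± 8.2 CPM per kilobase in KO and 252 ± 8.1 in WT livers (SD, n = 3 each). The place of Herpud1 among these 4 genes in WT livers is not resolved, since its spread covers the means of the other 3, whereas the spreads of Calr, Hsp90b1 and Hspa5 do not overlap. The sensors were far lower, with Atf6 at 19.4 in KO and 17.3 CPM per kilobase in WT livers, Ern1 at 10.1 in KO and 10.3 in WT, and Eif2ak3 at 5.15 in KO and 6.12 in WT. At the bottom stood Asns, at 1.55 in KO and 1.03 CPM per kilobase in WT livers, and Derl3, at 0.854 in KO and 0.925 in WT livers.

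**Figure D3:**
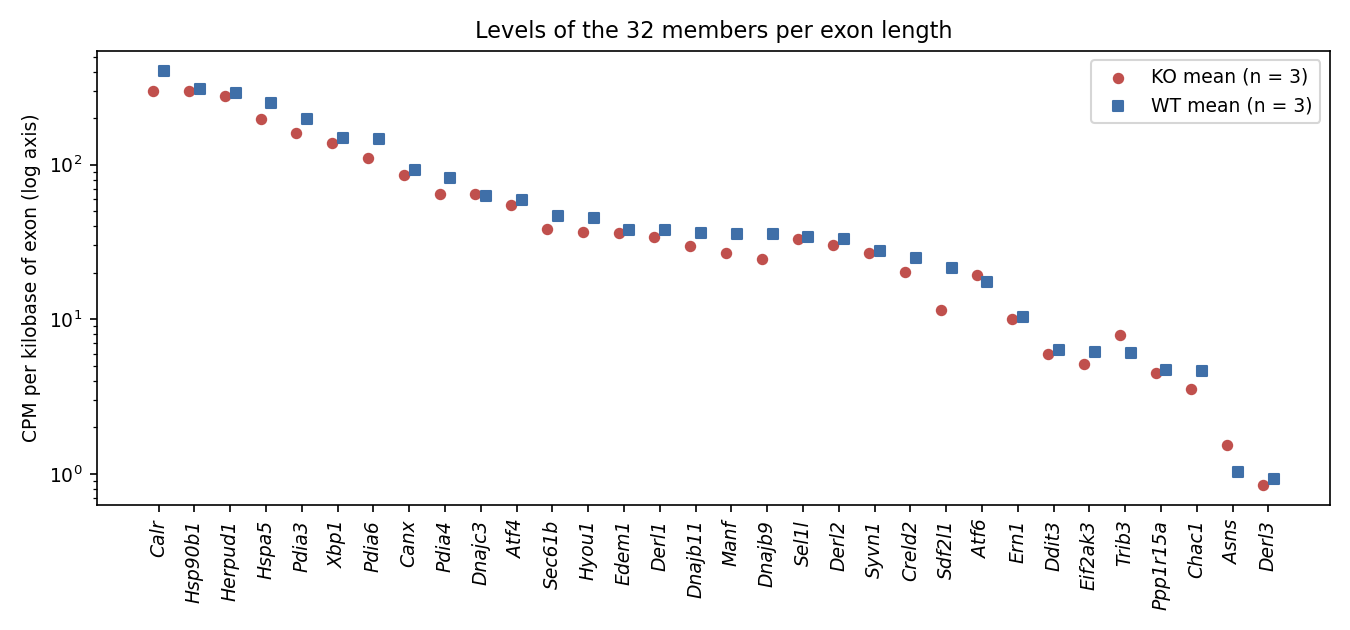
Mean CPM per kilobase of exon of the 32 genes on a log axis, KO circles left of WT squares (n = 3 each), in order of the WT level. Levels run from 401 for Calr to 0.925 for Derl3 in WT livers.

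Some of these genes share a promoter element. The genes were chosen for their known roles in this response, so how often the element occurs among them is no independent result. The ER stress response element reads CCAAT, any 9 bases, then CCACG, and its CCAAT part is bound by the factor NF-Y and its CCACG part by Atf6. Promoters of RefSeq (build GRCm38.p6), from 250 bases before to 50 after each annotated start, were found for 28 of the 32 genes. None was found for Atf6, Derl1, Hyou1 and Manf, although Derl1, Hyou1 and Manf had KO values all below WT values. An exact match on either strand was present in 9 of these 28 genes, or 32.1%, against 37 of 27025 genes in the table, or 0.137%. The 9 genes were Hspa5, Hsp90b1, Dnajc3, Creld2, Calr, Canx, Pdia6, Derl3 and Syvn1, and Hsp90b1 had 2 matches that did not overlap. Below, each match is in capitals with 10 bases on either side, read on the gene's own strand. A match that starts with CGTGG is the element in reverse.
Hspa5 (chr2:34772015-34772053, plus strand, 65 bases before the start): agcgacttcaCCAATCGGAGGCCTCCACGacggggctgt
Hsp90b1, far match (chr10:86705628-86705666, minus strand, 212 bases before): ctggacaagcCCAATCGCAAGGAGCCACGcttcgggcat
Hsp90b1, near match (chr10:86705523-86705561, minus strand, 107 bases before): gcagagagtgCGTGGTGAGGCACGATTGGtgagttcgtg
Dnajc3 (chr14:118937817-118937855, plus strand, 105 bases before): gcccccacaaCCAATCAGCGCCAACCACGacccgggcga
Creld2 (chr15:88819510-88819548, plus strand, 126 bases before): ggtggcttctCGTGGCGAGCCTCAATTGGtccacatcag
Calr (chr8:84847065-84847103, minus strand, 162 bases before): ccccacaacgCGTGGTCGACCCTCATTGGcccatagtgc
Canx (chr11:50325790-50325828, minus strand, 145 bases before): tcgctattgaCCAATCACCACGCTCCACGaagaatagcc
Pdia6 (chr12:17266481-17266519, plus strand, 98 bases before): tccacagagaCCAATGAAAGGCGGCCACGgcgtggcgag
Derl3 (chr10:75893232-75893270, plus strand, 156 bases before): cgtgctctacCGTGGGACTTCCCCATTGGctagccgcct
Syvn1 (chr19:6046522-6046560, plus strand, 44 bases before): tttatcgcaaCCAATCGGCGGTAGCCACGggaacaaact

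Genes with and without an exact match are given side by side, with no test of a difference. The 9 genes with a match had a median log2 fold change of -0.13, with 8 lower and 3 with KO values all below WT values. That median is the value of Derl3, which was barely present and had an SE of 0.55. The 19 genes with a promoter but no match had a median of -0.12, with 17 lower and 5 with KO values all below WT values. Of all genes tested, 49.7% were lower and 10.1% had KO values all below WT values. The estimates ran from -0.42 to 0.048 with a match and from -0.92 to 0.59 without. Inexact or more distant copies of the element were not searched for, so a gene without a match may still hold one. Other elements were rarer among the 28 genes. The related element, ATTGG, any 1 base, then CCACG, was found in Dnajb11 and Herpud1, 7.14% of the 28 against 0.0444% of all genes. The Atf4 site TGATGCAA was found in Chac1 and Herpud1, 7.14% against 1.03% of all genes. The core TGACGTG, bound by Atf6 and by spliced Xbp1, was found in Hspa5, 3.57% against 2.22% of all genes. Herpud1 thus held 2 kinds of element in its upstream bases, shown with their matches in capitals, both searched on either strand without overlap.
Herpud1, ATTGG and CCACG 1 base apart (chr8:94386367-94386397, plus strand, 52 bases before): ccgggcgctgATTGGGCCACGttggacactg
Herpud1, TGATGCAA in reverse (chr8:94386307-94386334, plus strand, 112 bases before): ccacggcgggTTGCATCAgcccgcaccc
Chac1, TGATGCAA in reverse (chr2:119351039-119351066, plus strand, 193 bases before): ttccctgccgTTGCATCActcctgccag

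The 250 bases before the start are given for Hspa5, with an exact match, and Sdf2l1, without. Both were called lower by DESeq2, as was Manf, for which no promoter was found. Capitals in Hspa5 mark TGACGTG and, nearer the start, the ER stress response element. The Sdf2l1 stretch held CCAAT 3 times and CCACG 3 times over both strands, at no point with the spacing of the element, and so carries no capitals.
Hspa5 (chr2:34771840-34772089, plus strand): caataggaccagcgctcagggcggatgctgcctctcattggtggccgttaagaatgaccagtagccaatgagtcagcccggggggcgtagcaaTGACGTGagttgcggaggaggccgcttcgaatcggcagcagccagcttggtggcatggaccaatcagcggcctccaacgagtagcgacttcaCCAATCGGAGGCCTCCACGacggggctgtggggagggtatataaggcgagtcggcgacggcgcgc
Sdf2l1 (chr16:17132384-17132633, minus strand): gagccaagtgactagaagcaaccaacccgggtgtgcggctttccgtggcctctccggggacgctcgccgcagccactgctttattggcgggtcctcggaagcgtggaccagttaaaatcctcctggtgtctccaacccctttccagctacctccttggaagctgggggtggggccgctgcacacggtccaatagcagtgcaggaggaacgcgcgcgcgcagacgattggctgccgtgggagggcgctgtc

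Among the large luminal chaperones, DESeq2 called Hspa5 lower in KO livers, and neither tool called Hyou1 or Hsp90b1. Hspa5 (BiP), the Hsp70 of the ER lumen that also holds the sensors inactive, had 726, 775 and 718 CPM in KO replicates 1 to 3, against 911, 951 and 971 CPM in WT replicates 1 to 3. The groups did not overlap, and each was tight. The log2 fold change was -0.35 ± 0.10 (SE), and its adjusted p was 0.160 by edgeR and 0.0139 by DESeq2. Hspa5 overlaps Rabepk in GRCm38.p6, whose own level was 9.37 CPM in KO and 8.90 CPM in WT livers. Coding genes also overlap Pdia3 (Catsper2), Pdia6 (Atp6v1c2), Ppp1r15a (Tulp2), Atf6 (Gm29733) and, as given below, Ddit3, Derl2 and Syvn1. Hyou1 (GRP170), which exchanges the nucleotide on Hspa5, had 184, 174 and 164 CPM in KO livers and 185, 213 and 252 CPM in WT livers. The highest KO value and WT replicate 1 were almost equal, and the log2 fold change was -0.31 ± 0.12 (SE, edgeR adjusted p = 0.277). Without WT replicate 3 it was -0.19, and with a clock score in the model, described with Dnajb9, it was -0.50. Hsp90b1 (GRP94), the Hsp90 of the ER lumen, had 859, 915 and 778 CPM in KO livers and 887, 806 and 915 CPM in WT livers, with full overlap and a log2 fold change of -0.031 ± 0.11 (SE, edgeR adjusted p = 0.930).

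The ratio of Hspa5 to Hsp90b1 counts does not depend on how libraries are scaled. It was chosen after the values had been seen and is given as a description. The ratio was 0.846, 0.847 and 0.923 in KO replicates 1 to 3, against 1.03, 1.18 and 1.06 in WT replicates 1 to 3. Every KO library held fewer Hspa5 than Hsp90b1 counts, and every WT library more.

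Of the proteins that work with Hspa5, Sdf2l1 had the most negative log2 fold change of the 32. Sdf2l1, a partner of the J protein Dnajb11, had 11.3, 15.002 and 11.6 CPM in KO livers, against 30.6, 16.9 and 24.2 CPM in WT livers. The KO mean was 0.529 of the WT mean, although WT replicate 2 lay close to KO replicate 2. The log2 fold change was -0.92 ± 0.21 (SE), and its adjusted p was 0.114 by edgeR and 0.00303 by DESeq2. Manf, a small ER protein that binds Hspa5 and can be secreted, had 66.0, 63.2 and 68.7 CPM in KO livers and 77.2, 95.4 and 92.0 CPM in WT livers. Its groups did not overlap, and its log2 fold change of -0.42 ± 0.10 (SE) had an adjusted p of 0.120 by edgeR and 0.0321 by DESeq2.

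Creld2, an ER protein raised by stress, had 27.0, 25.9 and 29.7 CPM in KO livers and 31.2, 31.6 and 38.7 CPM in WT livers, again without overlap. Dnajb11 (ERdj3), a J protein that brings clients to Hspa5, had 102, 101 and 87.5 CPM in KO livers and 121, 107 and 120.1 CPM in WT livers. Both had small differences, of -0.30 ± 0.12 for Creld2 and -0.26 ± 0.10 for Dnajb11 (log2 fold change ± SE), with edgeR adjusted p of 0.273 and 0.248. Dnajc3 (p58IPK), a J protein that can inhibit Eif2ak3, had 316, 335 and 348 CPM in KO livers and 323, 298 and 346 CPM in WT livers. Its groups overlapped in full, and its log2 fold change was 0.048 ± 0.098 (SE, edgeR adjusted p = 0.867).

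Dnajb9 (ERdj4), a J protein that recruits Hspa5 to Ern1, had 59.7, 65.4 and 56.3 CPM in KO livers and 53.4, 98.2 and 111 CPM in WT livers. WT replicate 1 lay below all KO libraries, and the other WT libraries lay well above them. The log2 fold change was -0.53 ± 0.23 (SE, edgeR adjusted p = 0.318), and without WT replicate 1 it was -0.79 ± 0.11 (SE, edgeR adjusted p = 0.0845). Without WT replicate 3 it was -0.33 ± 0.23 (SE, edgeR adjusted p = 0.547). The libraries also differed in their clock genes. A clock score, in which the average log2 CPM of 5 morning genes was subtracted from that of 8 evening genes, was 3.63, 4.19 and 3.99 in KO replicates 1 to 3 and -0.047, 2.85 and 3.31 in WT replicates 1 to 3. WT replicate 1 was the lowest by far, and every KO score lay above every WT score, so the score runs with genotype and the 2 cannot be fully told apart. When the score was added to the model, the Dnajb9 log2 fold change was -1.05 ± 0.12 (SE, edgeR adjusted p = 0.0818). The median over the 32 genes was -0.22 with the score, -0.21 without WT replicate 1 and -0.13 with all libraries and no score. The score did not move the genes one way. With it the estimate was -0.62 for Sdf2l1, -0.29 for Calr, -0.29 for Pdia6, -0.22 for Pdia3 and -0.20 for Pdia4, each nearer 0 than without it, and -0.57 for Manf and -0.40 for Hspa5, each farther from 0.

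**Figure D4:**
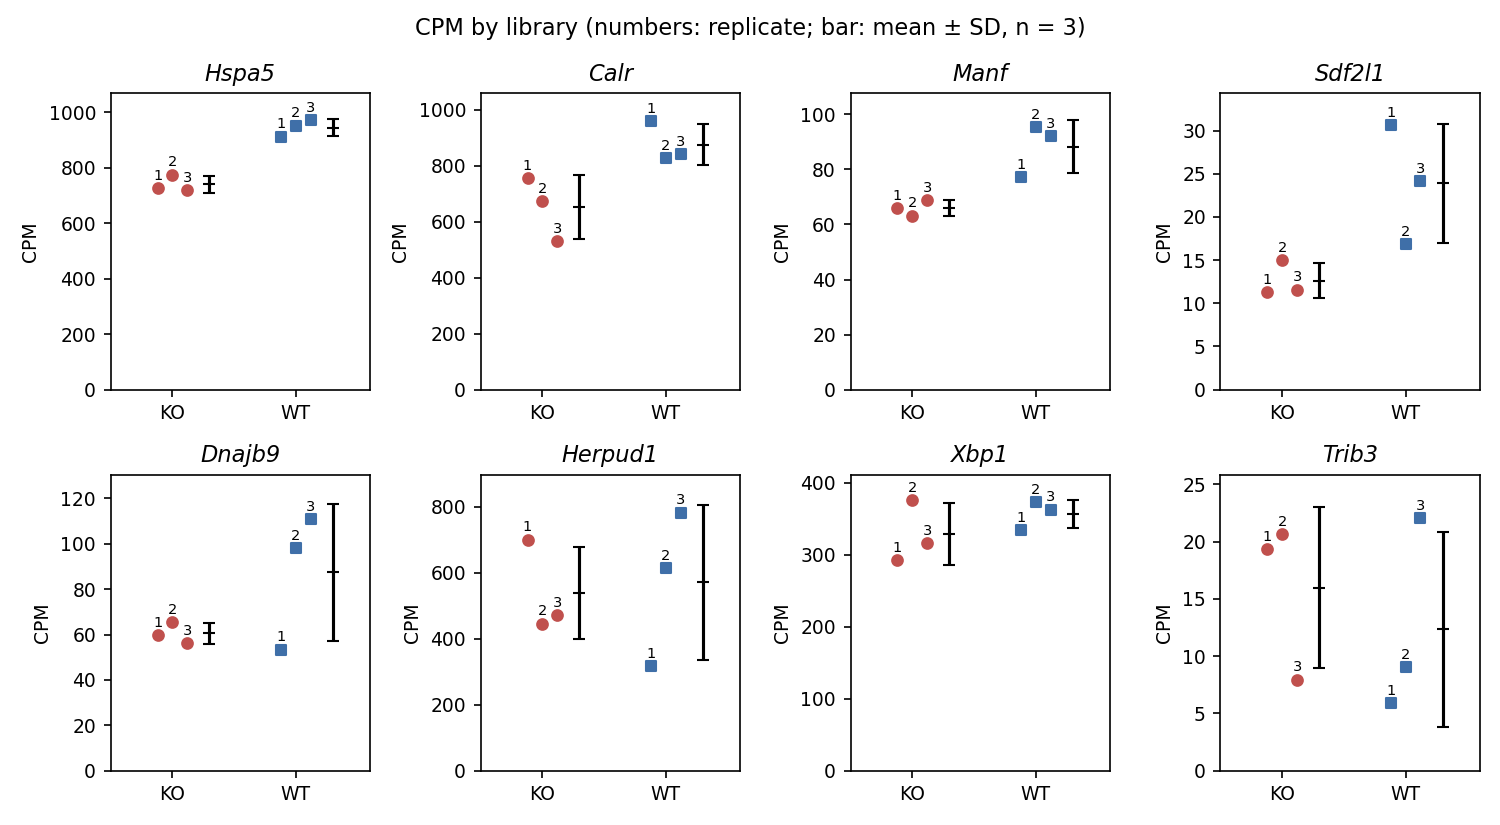
CPM of 8 genes in each library, KO left of WT, with replicate numbers beside the points and the mean ± SD (n = 3) as a bar. Hspa5, Calr, Manf and Sdf2l1 do not overlap between the groups, whereas Dnajb9 and Herpud1 are lowest in WT replicate 1, and Xbp1 and Trib3 overlap.

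The lectin chaperones bind sugar chains of new glycoproteins. Calr (calreticulin), the soluble lectin, had 755, 674 and 530.4 CPM in KO livers and 958, 828 and 840.5 CPM in WT livers. The groups did not overlap, KO replicate 3 was the lowest, and the log2 fold change was -0.42 ± 0.15 (SE, edgeR adjusted p = 0.225). Canx (calnexin), its membrane-bound relative, had 402, 350.0 and 346 CPM in KO livers and 400.1, 385 and 407 CPM in WT livers. Those groups overlapped, because KO replicate 1 sat among the WT libraries, and the log2 fold change was -0.12 ± 0.10 (SE, edgeR adjusted p = 0.622).

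All 3 disulfide isomerases had negative estimates, and none was called by edgeR or DESeq2. Pdia3 (ERp57), which acts on clients of the lectins, had 451, 464 and 408 CPM in KO livers and 582, 506 and 543 CPM in WT livers. Pdia4 (ERp72) had 168, 161 and 138 CPM in KO livers and 215, 179 and 192 CPM in WT livers. Neither gene overlapped between the groups. Pdia6 (P5) had 241, 274 and 207 CPM in KO livers and 361, 270.2 and 331 CPM in WT livers, so that KO replicate 2 just passed WT replicate 2. The log2 fold changes were -0.30 ± 0.10 for Pdia3, -0.33 ± 0.11 for Pdia4 and -0.42 ± 0.14 for Pdia6 (SE). Their edgeR adjusted p were 0.225, 0.211 and 0.220 in that order. Sec61b, a subunit of the channel that carries new proteins into the ER, had 21.96, 22.8 and 20.3 CPM in KO livers against 26.7, 27.3 and 24.9 CPM in WT livers, without overlap. Its log2 fold change was -0.28 ± 0.10 (SE, edgeR adjusted p = 0.226).

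None of the 3 sensors reached an unadjusted edgeR p under 0.05, and the groups overlapped in each. Ern1, the kinase and endonuclease, had 104, 75.2 and 68.0 CPM in KO livers and 69.1, 81.0 and 102 CPM in WT livers. Eif2ak3, the kinase of eIF2 alpha, had 28.0, 26.2 and 20.7 CPM in KO livers and 21.6, 29.4 and 38.0 CPM in WT livers. Both varied more within a genotype than between the genotype means. Ern1 spanned 1.52-fold in KO and 1.48-fold in WT livers, and Eif2ak3 1.36-fold in KO and 1.76-fold in WT livers. The log2 fold changes were -0.031 ± 0.18 for Ern1 and -0.25 ± 0.20 for Eif2ak3 (SE, edgeR adjusted p = 0.957 and 0.612). Atf6, the membrane-bound precursor of a transcription factor, had 147, 129.8 and 145 CPM in KO livers and 111, 119 and 147 CPM in WT livers. It was one of 4 genes with a positive estimate, at 0.16 ± 0.12 (SE, edgeR adjusted p = 0.567).

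The 3 transcription factors of the response had small negative estimates and overlapping groups. Xbp1, whose spliced form drives chaperone and degradation genes, had 293, 376 and 316 CPM in KO livers and 334, 373 and 362 CPM in WT livers. Atf4, whose translation increases when eIF2 alpha is phosphorylated, had 99.5, 79.1 and 106 CPM in KO livers and 108, 98.4 and 100.03 CPM in WT livers. Ddit3 (CHOP), a factor of prolonged stress, was scarce, with 5.82, 4.91 and 5.20 CPM in KO livers and 6.27, 4.35 and 6.29 CPM in WT livers. All 3 overlapped between the groups, with log2 fold changes of -0.12 ± 0.12, -0.10 ± 0.12 and -0.079 ± 0.19 (SE) and edgeR adjusted p of 0.680, 0.724 and 0.885, for Xbp1, Atf4 and Ddit3 in that order. Ddit3 overlaps Mbd6 and Mars1 in GRCm38.p6. Mbd6 stood at 43.6 CPM in KO and 34.5 CPM in WT livers, and the level of Mars1 is not given here. Whether the counting used strand is not stated in the sources used here.

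Of the targets of the Eif2ak3 and Atf4 arm, Trib3, Asns and Chac1 varied widely within a genotype, and Ppp1r15a less so. Trib3, a pseudokinase, had 19.4, 20.7 and 7.95 CPM in KO livers and 5.90, 9.07 and 22.04 CPM in WT livers. High and low libraries occurred in both genotypes, and the WT values alone spanned 3.74-fold. Asns, asparagine synthetase, had 54, 118 and 21 counts in KO livers and 65, 13 and 45 counts in WT livers, the lowest and the highest being a WT and a KO library. Chac1, which degrades glutathione, had 8.38, 5.89 and 3.19 CPM in KO livers and 4.99, 12.3 and 5.25 CPM in WT livers. Ppp1r15a (GADD34), which brings a phosphatase to eIF2 alpha, had 15.1, 11.3 and 13.2 CPM in KO livers and 10.1, 13.9 and 17.1 CPM in WT livers. The log2 fold changes were 0.38 ± 0.48 for Trib3, 0.59 ± 0.69 for Asns, -0.38 ± 0.42 for Chac1 and -0.048 ± 0.20 for Ppp1r15a (SE). Their edgeR adjusted p ran from 0.722 to 0.939, and for Trib3, Asns and Chac1 the SE was about as large as the estimate.

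All 7 degradation genes had negative estimates, none at an unadjusted edgeR p under 0.05, and Herpud1 and Derl3 varied by more than 1.5-fold within a genotype. Herpud1, a stress-induced scaffold of the degradation complex, had 700.3, 445 and 471 CPM in KO livers and 318, 614 and 782 CPM in WT livers. WT replicate 1, the library with the low clock score, was the lowest and WT replicate 3 the highest. The log2 fold change was -0.084 ± 0.30 (SE, edgeR adjusted p = 0.930), and it was -0.60 when the clock score was in the model and 0.21 without WT replicate 3. Sel1l, the partner of the ubiquitin ligase Syvn1, had 211, 218 and 198 CPM in KO livers and 216, 207 and 225 CPM in WT livers. Edem1, which hands misfolded glycoproteins to the pathway, had 195, 221 and 218 CPM in KO livers and 219, 221 and 220.1 CPM in WT livers. Syvn1 (HRD1) had 116, 96.6 and 83.8 CPM in KO livers and 88.7, 99.97 and 117 CPM in WT livers. These 3 overlapped, with log2 fold changes of -0.049 ± 0.088 for Sel1l, -0.057 ± 0.089 for Edem1 and -0.041 ± 0.14 for Syvn1 (SE, edgeR adjusted p = 0.845, 0.818 and 0.927). In GRCm38.p6 the Syvn1 gene overlaps Mrpl49, at 37.3 CPM in KO and 34.8 CPM in WT livers.

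The derlins help to move substrates out of the ER membrane. Derl1 had 110.7, 109 and 103 CPM in KO livers and 111.3, 118 and 128 CPM in WT livers, separated only by a hair between KO replicate 1 and WT replicate 1. Derl2 had 137, 127.4 and 127.0 CPM in KO livers and 131, 146 and 149 CPM in WT livers, and it overlaps Mis12 in GRCm38.p6, at 32.02 CPM in KO and 35.9 CPM in WT livers. Derl3 was barely present, with 15, 40 and 10 counts in KO livers and 31, 16 and 22 counts in WT livers. The log2 fold changes were -0.15 ± 0.087 for Derl1, -0.12 ± 0.088 for Derl2 and -0.13 ± 0.55 for Derl3 (SE, edgeR adjusted p = 0.469, 0.555 and 0.940).

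Libraries of 1 genotype also differed from each other over the 32 genes. KO replicate 3 was the lowest KO library for 21 of them, among these Hspa5, Calr and all 3 disulfide isomerases. WT replicate 3 was the highest WT library for 18, and WT replicate 1 the lowest for 17, including all 3 sensors, Herpud1 and Dnajb9. In 10 of the 32 the highest library of a genotype exceeded the lowest by more than 1.5-fold, among them all 4 targets of the Eif2ak3 and Atf4 arm. By contrast, the values of Edem1 in WT livers and of Hspa5 in both genotypes differed by less than 10% between the highest and the lowest library.

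Other genes of the ER and of neighbouring stress pathways were listed by known role. Over 9 such lists edgeR called 0 genes, where it called 0.216% of all genes tested. DESeq2 called 1, where it called 3.5% of all genes tested. The genes named here are those with the lowest unadjusted p of each list. Beside each list, 49.7% of all genes tested were lower, and at an unadjusted edgeR p under 0.05 7.35% were lower and 8.1% higher. The 23 genes for translocation and signal peptide cleavage had a median log2 fold change of -0.15, with 20 lower, and 6 lower and 1 higher at an unadjusted edgeR p under 0.05. Spcs2, a subunit of signal peptidase, averaged 56.6 ± 1.9 CPM in KO and 69.7 ± 3.5 CPM in WT livers (SD, n = 3 each), while Sec61a2, a channel isoform, averaged 7.97 ± 1.54 CPM in KO and 5.41 ± 0.54 CPM in WT livers (SD, n = 3 each). The 20 genes of N-glycosylation and glycoprotein folding control had a median of -0.14, with 14 lower, and 3 lower at an unadjusted edgeR p under 0.05. Ostc and Rpn1, of the oligosaccharyltransferase, stood at -0.38 ± 0.11 and -0.32 ± 0.11 (log2 fold change ± SE). The 22 other ER chaperones and oxidoreductases had a median of -0.085, with 17 lower, and 4 lower at an unadjusted edgeR p under 0.05. Qsox1, a disulfide-forming oxidase, was at -0.40 ± 0.14 and Erp29 at -0.28 ± 0.11 (SE).

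The 23 other degradation genes had a median of -0.097, with 16 lower, and 1 lower at an unadjusted edgeR p under 0.05. Of all genes tested, 7.35% were lower and 8.1% higher at that p. Edem2, a relative of Edem1, was at -0.33 ± 0.11 and Faf2 at -0.17 ± 0.082 (SE). The 14 other regulators of the response and of eIF2 alpha had a median of -0.013, with 1 lower at an unadjusted edgeR p under 0.05, Creb3l1 at -0.66 ± 0.28, while Eif2ak4, the kinase that senses amino acid lack, was at 0.27 ± 0.13 (SE). Of 29 other targets of Atf4 and the integrated stress response 26 were tested, with a median of -0.092, and 5 lower and 2 higher at an unadjusted edgeR p under 0.05. Aldh18a1, of proline synthesis, averaged 1.05 ± 0.44 CPM in KO and 2.25 ± 0.18 CPM in WT livers, and Gpt2, an alanine transaminase, 644 ± 138 CPM in KO and 449 ± 59 CPM in WT livers (SD, n = 3 each).

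The 20 tested genes of ER exit and retrieval had a median of 0.0021, with 2 lower and 1 higher at an unadjusted edgeR p under 0.05. At that p, 7.35% of all genes were lower and 8.1% higher. Kdelr3, a receptor that returns ER proteins from the Golgi, averaged 0.268 ± 0.029 CPM in KO and 0.700 ± 0.180 CPM in WT livers (SD, n = 3 each), and Sec24a, of the COPII coat, was at 0.36 ± 0.11 (SE). The 6 mRNAs known as substrates of the Ern1 endonuclease had a median of -0.044, with 1 lower at an unadjusted edgeR p under 0.05, Scara3 at -0.65 ± 0.22, and with Hgsnat at 0.14 ± 0.088 (SE). The 19 tested heat shock proteins of the cytosol and mitochondria had a median of -0.062, with 1 lower at an unadjusted edgeR p under 0.05. That gene was Hspb1, a small heat shock protein, with 24, 5 and 22 counts in KO livers and 50 counts in each WT library, and DESeq2 called it lower (adjusted p = 0.00634). Hspa1b, an inducible Hsp70, was at -0.77 ± 0.35 (SE).

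**Figure D5:**
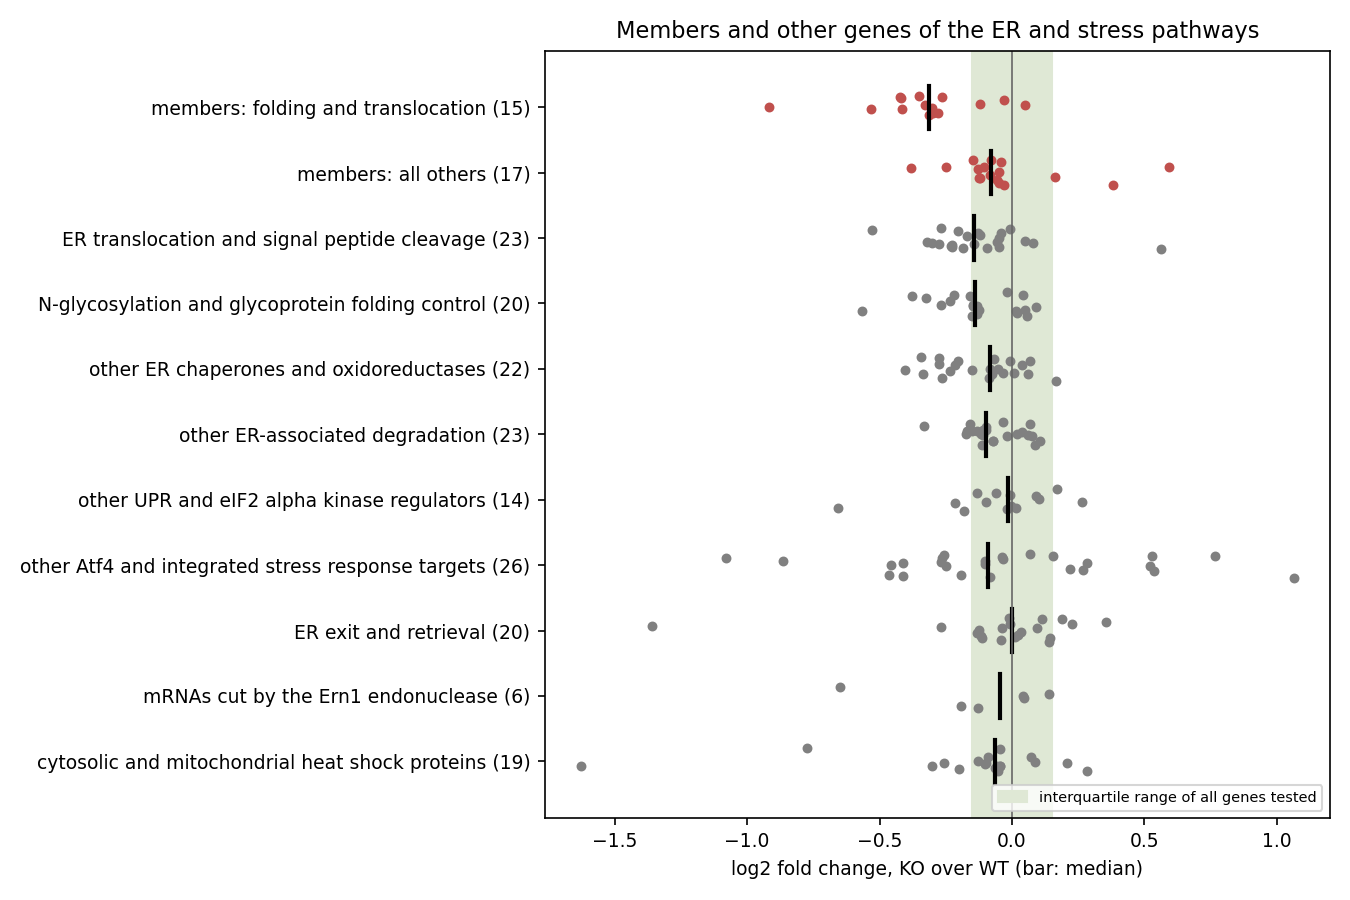
Log2 fold changes, KO over WT, of the 15 folding and translocation genes and the 17 others of the 32 (red), and of 9 lists of related genes (grey), with a bar at each median and the number of genes tested in brackets. The shaded band is the interquartile range of all genes tested, -0.15 to 0.15, and describes single genes, so it is no range for a median. The 15 folding genes, grouped after their values were seen, have a median of -0.31.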

How the data were processed

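Read counts per gene symbol were deposited by the authors as raw whole numbers, 1 file per library, for 3 KO and 3 WT livers. Per the submitters' processing notes, the tools were CASAVA 1.8.2, TopHat2 2.0.8b and HTSeq, and 2 builds, mm9 and hg19, are listed without saying what each was for. No source used here states the annotation or whether strand was used. Each file ends in 5 entries that name no gene, which entered neither library sizes nor tests. Of the reads in genes, in no gene or ambiguous, 9.65% to 12.5% were in no gene. The entry for alignments that were not unique is outside that share. It held 31049067 to 50175317 per library, more than the gene counts in every library.

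The test was the quasi-likelihood F test of edgeR 4.0.16 (R 4.3.3), with filterByExpr (minimum count 10), TMM scaling, genotype as the only term, and Benjamini-Hochberg adjustment over 12522 genes. The SE was derived from the F statistic. CPM uses TMM-adjusted library sizes. DESeq2 1.42.0, limma-voom (limma 3.58.1) and other settings were alternatives. Simulated counts with known changes were used to check the test.

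The 32 genes and the related lists were chosen with earlier results of these data known. All 32 genes are named, and of each related list the genes past the threshold or, with none, the 2 of lowest p. The labels state no pairing by replicate number, and the main test used none. Promoters are from RefSeq (GRCm38.p6), a build other than those in the notes.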

Additional observations from a re-analysis of the deposited data

How the results depend on the processing

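In every alternative run other than DESeq2, 0 of the 32 genes were called, and DESeq2 called 3 (Hspa5, Sdf2l1 and Manf). Over all genes 27 were called, against 133 with no filter, 438 by DESeq2, 68 by edgeR with robust estimation, 1 at an adjusted p under 0.01, 1 with the clock score, 1 without WT 1 and KO 2 together, and 3 to 36 with 1 library left out. With the replicate number as a block 1 gene was called over all genes, 0 of the 32 were called and their median was -0.13. Deviations of same-numbered libraries correlated at -0.083, -0.098 and -0.041, and those of the other KO and WT pairs at -0.051 to 0.12. These values cannot decide whether same-numbered libraries were paired, and the labels do not state it.

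The median of the 32 genes ran from -0.24 to -0.097 with 1 library left out. It was -0.22 with the clock score and -0.26 without WT 1 and KO 2 together. In that last setting 18 of the 32 had groups that did not overlap. With fewer libraries in each group such separation is more common for any gene, so the 18 cannot be set against the 11 of the main setting. In the main setting 11 of the 32 were separated, all lower, where 10.1% of all genes had KO values all below WT values. Median-ratio scaling gave 9, and upper-quartile and total-count scaling 14. The shares over all genes in these other settings were not computed. The sign of some estimates that missed the threshold turned. With the clock score Ddit3 was at 0.052, Trib3 at -0.32 and Derl3 at 0.16. Without WT 1 and KO 2 together Atf4 was at 0.050, Ddit3 at 0.060 and Trib3 at -0.18. With 1 library left out Derl3 ran from -1.0005 to 0.23, Ern1 from -0.23 to 0.13, Atf4 from -0.19 to 0.011, Asns from -0.28 to 1.09, Ppp1r15a from -0.23 to 0.14, Herpud1 from -0.37 to 0.21, Hsp90b1 from -0.086 to 0.030, Syvn1 from -0.18 to 0.069, Ddit3 from -0.24 to 0.0060, Dnajc3 from -0.0095 to 0.10 and Chac1 from -0.75 to 0.18. The cause was not tested. Counts of 10 to 40 per library limit what can be said of Derl3.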

Other observations

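Beyond the 32 genes, 8 tested genes carried an exact ER stress response element in their RefSeq promoter. Their median log2 fold change was 0.20, with 4 lower and 0 called by edgeR over all genes. They ran from -0.59 for Spats2l to 2.37 for Xlr3a, which averaged 3.01 CPM in KO and 0.573 CPM in WT livers (edgeR adjusted p = 0.0823). Among the others, chosen after their values were seen, Alg12, a mannosyltransferase that builds the N-linked sugar chain, was at -0.23 ± 0.15 (SE), and Acacb, the mitochondrial acetyl-CoA carboxylase, at -0.018 ± 0.11 (SE). In 3 of the 8 the KO values all lay above and in 1 all below the WT values, where 10.7% and 10.1% of all genes did so.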
